A study of Mus musculus with 10 samples.

Results

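The 10 genes described here belong to the circadian clock and to its output factors of the PAR bZIP family. They were found by gene name among the 40789 genes of the count table: Arntl and Clock, Per1, Per2 and Per3, Nr1d1 and Nr1d2, Tef and Hlf, and Nfil3. All 10 were present, each as 1 protein-coding gene. These genes were selected on the LPS to saline fold changes and adjusted p-values of these same data, alongside their known roles, so for these 10 genes the LPS to saline differences and their adjusted p-values are a description of where they lie among all genes and not independent evidence.

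In 5 mice, endotoxin from the outer membrane of bacteria (lipopolysaccharide, LPS), a strong trigger of inflammation, was injected intraperitoneally at 4 mg/kg. The 5 control animals were injected with saline. Both groups were female C57BL6/J mice, 2 to 3 months old, of genotype CX3CR1+/egfp, in which 1 copy of the fractalkine receptor gene carries a green fluorescent reporter. Cells with high reporter fluorescence, in brain mostly microglia, were sorted from the cortex 24 hours after the injection, and each library came from 1 mouse. Blood monocytes and border macrophages can carry the same reporter, and the sources used here do not give the time of day of injection or of killing. Since clock transcripts rise and fall over the day, a change of level and a change of phase cannot be told apart with 1 time point.

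The mammalian clock is a feedback loop of transcription. The proteins CLOCK and BMAL1 (encoded by Arntl) bind E-box sequences and switch on the Per and Cry genes, whose products block CLOCK and BMAL1 in turn, and the genes Nr1d1 and Nr1d2, whose products REV-ERB alpha and beta are nuclear receptors that repress Arntl and Nfil3 through ROR elements. The PAR bZIP factors TEF, HLF and DBP activate, and NFIL3 (also called E4BP4) represses, genes with a D-box. Microglia and other macrophages have a working clock, and REV-ERB alpha is known in mouse macrophages as a brake on inflammatory genes.

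Promoter sequences are shown for the members whose start region holds 1 of 5 searched motifs. Most of these are letters that the factors described above recognise. The cAMP response element is not among the motifs given above for those factors. RefSeq promoters of GRCm38.p6, from 250 bases before to 50 after the start, were found for 9 of the 10 members (14 entries). Both strands were searched for CACGTG (E-box, in 7.15% of 32851 promoters of 27025 genes), CACGTT (E-prime box, 4.69%), TTATGTAA (D-box, 0.938%), TAGGTCA (ROR element, 2.61%) and TGACGTCA (cAMP response element, 1.79%). Positions count from the start, with the first base before it as -1, and give the first base of the match on the gene's strand. Matches stand in capitals. Per3 has a D-box at -205 and another at -158 (minus strand, chr4:151044666-151044915). Tef has an E-box at -127 of 1 promoter (plus strand, chr15:81802423-81802672) and at -138 of another. Per1 has an E-box at -166 (plus strand, chr11:69098699-69098948). Nr1d1 has an E-prime box at -28, read on the other strand (minus strand gene, chr11:98775378-98775627). Nfil3 has a ROR element at -12, read on the other strand (minus strand gene, chr13:52981040-52981289). Hlf has a cAMP response element at -9 (minus strand, chr11:90390918-90391167). Arntl has a ROR element at 31 after 1 of its starts, of which 30 bases are shown (plus strand, chr7:113207530-113207559). These matches are descriptions of letters, not of bound sites.
Per3: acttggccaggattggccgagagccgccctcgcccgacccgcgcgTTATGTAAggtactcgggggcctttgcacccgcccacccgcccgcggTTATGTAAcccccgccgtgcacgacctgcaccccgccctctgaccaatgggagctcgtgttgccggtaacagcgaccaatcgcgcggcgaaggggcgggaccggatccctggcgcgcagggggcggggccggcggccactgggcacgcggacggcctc
Tef: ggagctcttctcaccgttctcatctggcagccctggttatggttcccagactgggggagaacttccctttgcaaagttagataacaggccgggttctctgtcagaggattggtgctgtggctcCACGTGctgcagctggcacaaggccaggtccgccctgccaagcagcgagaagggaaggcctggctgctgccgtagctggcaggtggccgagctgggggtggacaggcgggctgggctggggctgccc
Per1: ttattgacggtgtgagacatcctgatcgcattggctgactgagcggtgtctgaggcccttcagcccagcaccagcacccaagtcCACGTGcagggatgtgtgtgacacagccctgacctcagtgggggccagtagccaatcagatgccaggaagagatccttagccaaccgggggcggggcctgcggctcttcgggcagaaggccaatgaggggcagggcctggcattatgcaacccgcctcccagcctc
Nr1d1: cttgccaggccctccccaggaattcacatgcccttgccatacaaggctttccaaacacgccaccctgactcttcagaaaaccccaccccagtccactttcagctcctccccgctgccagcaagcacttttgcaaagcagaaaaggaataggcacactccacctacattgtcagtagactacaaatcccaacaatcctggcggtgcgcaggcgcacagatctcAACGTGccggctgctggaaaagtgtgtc
Nfil3: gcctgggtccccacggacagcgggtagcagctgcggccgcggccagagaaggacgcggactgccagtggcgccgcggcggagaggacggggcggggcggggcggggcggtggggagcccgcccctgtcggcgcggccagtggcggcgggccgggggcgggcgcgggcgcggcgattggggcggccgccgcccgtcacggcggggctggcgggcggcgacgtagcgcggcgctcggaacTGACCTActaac
Hlf: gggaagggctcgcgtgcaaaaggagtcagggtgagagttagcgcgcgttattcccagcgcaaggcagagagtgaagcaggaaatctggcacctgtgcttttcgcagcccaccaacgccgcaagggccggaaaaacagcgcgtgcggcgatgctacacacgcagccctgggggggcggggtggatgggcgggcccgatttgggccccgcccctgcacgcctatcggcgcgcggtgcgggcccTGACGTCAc
Arntl: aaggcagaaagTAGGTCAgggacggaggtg

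Total counts were 12928007 to 15332121 per library in LPS and 11577295 to 15274421 in saline. Levels are given in CPM (counts relative to library size, with TMM factors that correct for differences in library composition), and each log2 fold change sets LPS against saline, with a standard error taken from 5 and 5 mice. A gene was called when its adjusted p in the edgeR quasi-likelihood test over 13793 genes was under 0.05. All members passed the filter on low counts, but Hlf and Per2 did so through saline: 5 saline libraries but 2 LPS libraries for Hlf, and 1 for Per2, lay above it. Of the 10 members, 2 rose (Per1 and Nfil3), 5 fell (Per3, Nr1d1, Nr1d2, Tef and Hlf), and 3 (Arntl, Clock and Per2) were not called. Over all genes tested 22.4% were called higher and 22.5% lower, and the median log2 fold change was 0.00, against -1.73 over the members. Because the choice of members used this contrast, nothing is read from their share.

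**Figure D1:**
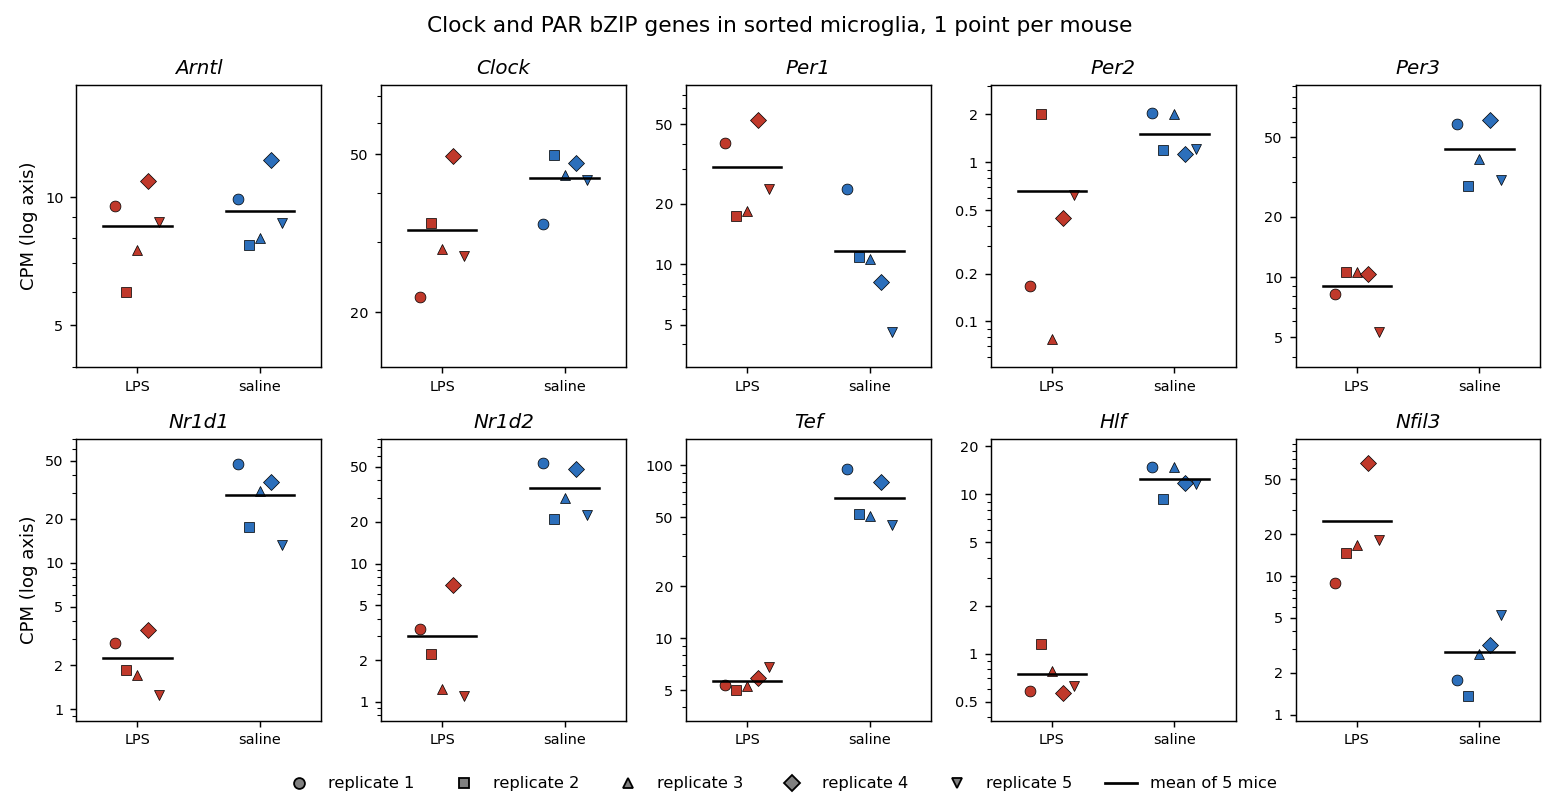
CPM of each of the 10 genes on a log axis, 1 point per mouse (shapes mark replicates, which are not paired between groups), with the mean of 5 LPS mice and 5 saline mice as a line. Per3, Nr1d1, Nr1d2, Tef, Hlf and Nfil3 show no overlap between the groups, while Arntl, Clock, Per1 and Per2 overlap.

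The 2 activators at the top of the loop differed little. Arntl (chromosome 7, 113178471 to 113314126 on GRCm38) had 9.54, 5.99, 7.53, 10.9 and 8.77 CPM in LPS mice 1 to 5, against 9.88, 7.72, 7.999, 12.2 and 8.69 CPM in saline mice. The groups lay over each other, with 8.55 ± 1.88 CPM in LPS and 9.30 ± 1.84 CPM in saline (SD, n = 5 each). Its log2 fold change was -0.12 ± 0.19 (edgeR adjusted p = 0.655), and over 22 alternative settings it lay between -0.22 and -0.01. Clock (chromosome 5, 76209868 to 76305603), the partner of BMAL1, had 21.8, 33.5, 28.9, 49.4 and 27.7 CPM in LPS, against 33.3, 49.9, 44.4, 47.5 and 43.2 CPM in saline. The groups overlapped: LPS replicate 4 lay among the highest saline mice, and saline replicate 1 lay below LPS replicate 2. The log2 fold change of Clock was -0.43 ± 0.22 (edgeR adjusted p = 0.0852). It was called lower without LPS replicate 4 (-0.64, edgeR adjusted p = 0.00463), and changed sign when a trend of counts with gene length was removed from each library (0.09, edgeR adjusted p = 0.643). Clock was 3.25 times as long as the median gene, and the shortest 20% of genes held 20.5% to 29.3% of counts in LPS libraries against 12.6% to 17.8% in saline libraries.

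The 3 period genes, whose products are the repressors of the loop, did not move together. Per1 (chromosome 11, 69095108 to 69109965), an early responder to many signals, had 40.2, 17.4, 18.4, 52.2 and 23.8 CPM in LPS, against 23.8, 10.9, 10.7, 8.17 and 4.63 CPM in saline. Saline replicate 1 lay above 2 of the LPS mice, and the 2 highest values were those of LPS replicates 4 and 1. Per1 averaged 30.4 ± 15.2 CPM in LPS and 11.6 ± 7.24 CPM in saline (SD, n = 5 each), a 2.61-fold rise (log2 fold change 1.39 ± 0.49, edgeR adjusted p = 0.0110). Per3 (chromosome 4, 150997018 to 151044707), whose promoter holds the pair of D-boxes shown above, had 8.20, 10.6, 10.6, 10.4 and 5.32 CPM in LPS, against 58.2, 28.7, 39.2, 61.1 and 30.5 CPM in saline. The highest LPS mouse was well under the lowest saline mouse. Per3 fell 4.83-fold (log2 fold change -2.27 ± 0.29, edgeR adjusted p = 1.14e-05).

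Per2 (chromosome 1, 91415977 to 91459351) was near the limit of detection. It had 2, 26, 1, 7 and 8 raw counts in LPS, against 31, 14, 25, 18 and 17 raw counts in saline. In CPM, 4 LPS mice lay below all saline mice, and LPS replicate 2 stood among the saline mice with 2.00 CPM. Per2 was not called (log2 fold change -1.18 ± 0.59, edgeR adjusted p = 0.138), but was without LPS replicate 2 (-2.16, edgeR adjusted p = 0.00944) and with limma-voom (-1.76, adjusted p = 0.0348). Within the libraries, the difference of log2 CPM between Per1 and Per3 was 2.27, 0.71, 0.79, 2.31 and 2.13 in LPS, against -1.29, -1.38, -1.86, -2.88 and -2.68 in saline. It was positive in all LPS mice and negative in all saline mice. This difference, and those of Tef with Hlf and of Nr1d2 with Nr1d1 given further on, were chosen after the values had been seen.

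The REV-ERB genes fell together. Nr1d1 (chromosome 11, 98767932 to 98775377), which encodes REV-ERB alpha, had 2.85, 1.84, 1.71, 3.49 and 1.25 CPM in LPS, against 47.1, 17.6, 30.8, 35.4 and 13.2 CPM in saline. Every LPS mouse lay below every saline mouse, and the spread among saline mice was wide. In bulk samples, less RNA per cell and fewer cells that hold it cannot be told apart. Nr1d1 averaged 2.23 ± 0.913 CPM in LPS and 28.8 ± 13.7 CPM in saline (SD, n = 5 each), 12.8-fold lower (log2 fold change -3.68 ± 0.42, edgeR adjusted p = 4.13e-06). Nr1d2 (chromosome 14, 18204056 to 18239106), which encodes REV-ERB beta, had 3.35, 2.23, 1.24, 7.04 and 1.10 CPM in LPS, against 53.5, 20.9, 30.1, 48.3 and 22.4 CPM in saline. LPS replicate 4 was the highest LPS mouse, still below all saline mice. Nr1d2 was 11.5-fold lower (log2 fold change -3.53 ± 0.54, edgeR adjusted p = 3.52e-05), and 17.6-fold lower without LPS replicate 4. Exons of Nr1d1 share 263 of 3077 bases with Thra, a thyroid hormone receptor gene on the other strand (GENCODE vM21), and no source used here gives the use of strand in counting. Thra itself held 378 counts over all 10 libraries (mean 1.61 CPM in LPS and 3.72 CPM in saline). In LPS replicates 4 (4.31 CPM) and 5 (1.49 CPM) Thra lay above Nr1d1, and without strand, reads in the shared bases cannot be told apart.

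Since REV-ERB proteins repress Arntl, the difference between the 2 transcripts within a library was taken. On the log2 CPM scale Arntl minus Nr1d1 was 1.69, 1.62, 2.05, 1.60 and 2.67 in LPS, against -2.24, -1.18, -1.92, -1.52 and -0.60 in saline. It was positive in all LPS mice and negative in all saline mice, with means of 1.93 ± 0.45 in LPS and -1.49 ± 0.64 in saline (SD, n = 5 each). Nr1d1 was among the genes selected on this contrast and Arntl differed little, so the shift restates the fall of Nr1d1. Whether repression of Arntl changed was not tested. CPM is not corrected for length, so the sign says nothing about which transcript was more abundant in 1 group.

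The PAR bZIP activators fell and their counterpart Nfil3 rose. Tef (chromosome 15, 81802673 to 81826863) had 5.36, 4.99, 5.28, 5.89 and 6.81 CPM in LPS, against 95.4, 52.3, 50.7, 79.7 and 45.4 CPM in saline. The LPS mice lay close to each other at 5.67 ± 0.718 CPM, against 64.7 ± 21.7 CPM in saline (SD, n = 5 each). Tef was 11.4-fold lower (log2 fold change -3.51 ± 0.22, edgeR adjusted p = 7.72e-08). Exons of Tef share 193 of 7867 bases with Gm17597, a gene on the other strand with 67 counts over all libraries. Hlf (chromosome 11, 90336535 to 90390917) had 7, 15, 10, 9 and 8 raw counts in LPS, against 227, 111, 184, 190 and 163 raw counts in saline. Every LPS mouse lay below every saline mouse, and 2 of the 5 LPS mice were above the filter of 10 counts at the median depth. Hlf had 0.742 ± 0.243 CPM in LPS and 12.5 ± 2.36 CPM in saline (SD, n = 5 each), 16.7-fold lower (log2 fold change -4.07 ± 0.20, edgeR adjusted p = 1.33e-07).

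Nfil3 (chromosome 13, 52967209 to 52982878) had 8.87, 14.7, 16.7, 65.7 and 18.2 CPM in LPS, against 1.78, 1.36, 2.75, 3.18 and 5.20 CPM in saline. All LPS mice were above all saline mice, and LPS replicate 4 was far above the other LPS mice. Nfil3 rose 8.67-fold (log2 fold change 3.12 ± 0.57, edgeR adjusted p = 0.000280), and 5.09-fold without LPS replicate 4 (edgeR adjusted p = 6.38e-05). The balance of the D-box repressor over its activators, Nfil3 minus the mean of Tef and Hlf in log2 CPM, was 2.17, 2.52, 2.91, 4.98 and 2.99 in LPS, against -4.30, -3.90, -3.26, -3.22 and -2.11 in saline. Its means were 3.11 ± 1.10 in LPS and -3.36 ± 0.83 in saline (SD, n = 5 each), 6.47 apart. Nfil3, Tef and Hlf were selected on this contrast, so this distance restates their fold changes. The 2 activators kept nearly the same distance from each other, with Tef minus Hlf at 2.74 ± 0.48 in LPS and 2.31 ± 0.43 in saline, and so did the REV-ERB pair, with Nr1d2 minus Nr1d1 at 0.18 ± 0.53 in LPS and 0.32 ± 0.30 in saline; both groups overlapped in each difference.

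**Figure D2:**
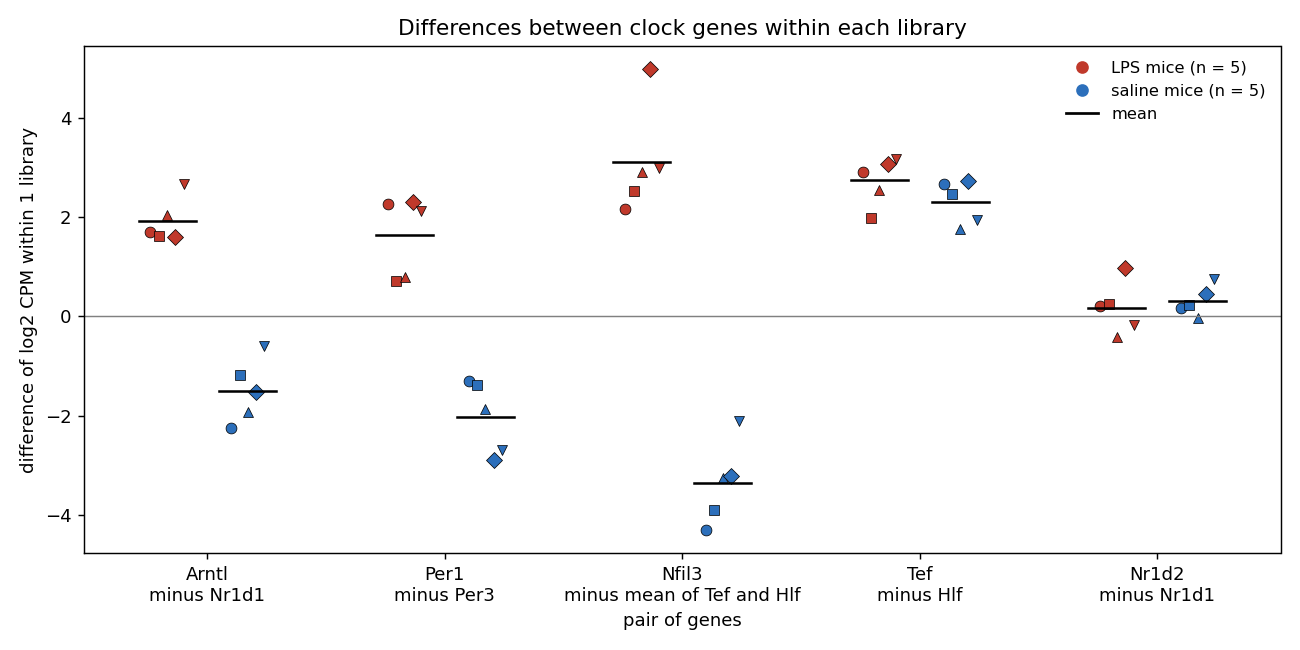
Difference of log2 CPM between members within each library, 1 point per mouse (shapes mark replicates), with the mean of 5 LPS mice left of 5 saline mice. For Arntl minus Nr1d1, Per1 minus Per3 and Nfil3 minus the mean of Tef and Hlf, all LPS points lie above 0 and all saline points below, while Tef minus Hlf and Nr1d2 minus Nr1d1 overlap.

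Ranked by fold change among the 13793 genes tested, Hlf was the 22nd largest fall, Nr1d1 the 37th, Nr1d2 the 44th, Tef the 45th and Per3 the 208th, and Nfil3 was the 159th largest rise. A called fall of at least 4-fold was seen for 2.14% of genes tested. The groups did not overlap for 6 of the 10 members, and for 29.8% of all genes tested. The 7 called members kept their direction and stayed under the threshold in all 154 refits (22 alternatives for each gene). Sample titles carry mouse numbers that fall into 3 ranges. Within the ranges the log2 difference of Nr1d1 was -3.57 (2 LPS and 2 saline mice), -4.16 (1 and 2) and -2.57 (2 and 1), and that of Per1 was 0.71, 0.97 and 2.89. All 7 kept their sign in each range. For the 6 members without overlap between the groups, these signs were fixed in advance. The refits and the ranges reuse the mice on which the members were selected, and are no independent support. With the ranges as a term of the edgeR fit, 2 members were called higher and 5 lower; the adjusted p was 3.70e-05 for Nr1d1 (log2 fold change -3.52) and 0.0253 for Per1 (1.34).

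Per gene length, the order of the 10 transcripts differed between the groups. In the authors' deposited RPKM values (reads per kilobase of gene, scaled to library size), the highest medians in LPS were those of Per1 (3.98, range 2.94 to 8.28 RPKM), Nfil3 (3.55, 1.90 to 13.4), Clock (2.97, 2.27 to 4.88) and Arntl (2.87, 1.97 to 3.38). The ranges of these 4 overlapped. In saline the highest medians were those of Nr1d1 (11.7, range 4.99 to 17.3 RPKM), Tef (10.3, 8.90 to 18.2), Nr1d2 (6.80, 4.69 to 11.7) and Per3 (6.79, 4.93 to 9.90). Neighbours in that order overlapped too. Arntl, with 2.87 RPKM in LPS and 2.78 RPKM in saline, stood at rank 4 and rank 6. Hlf moved to rank 9 in LPS (0.115 RPKM) against rank 7 in saline (2.08 RPKM), and Per2 was the lowest in both, with 0.0746 RPKM in LPS and 0.210 RPKM in saline. In LPS the medians of Tef (1.07 RPKM), Nr1d1 (0.715 RPKM) and Nr1d2 (0.515 RPKM) lay below those of Arntl and Clock, and in saline all 3 lay above them.

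**Figure D3:**
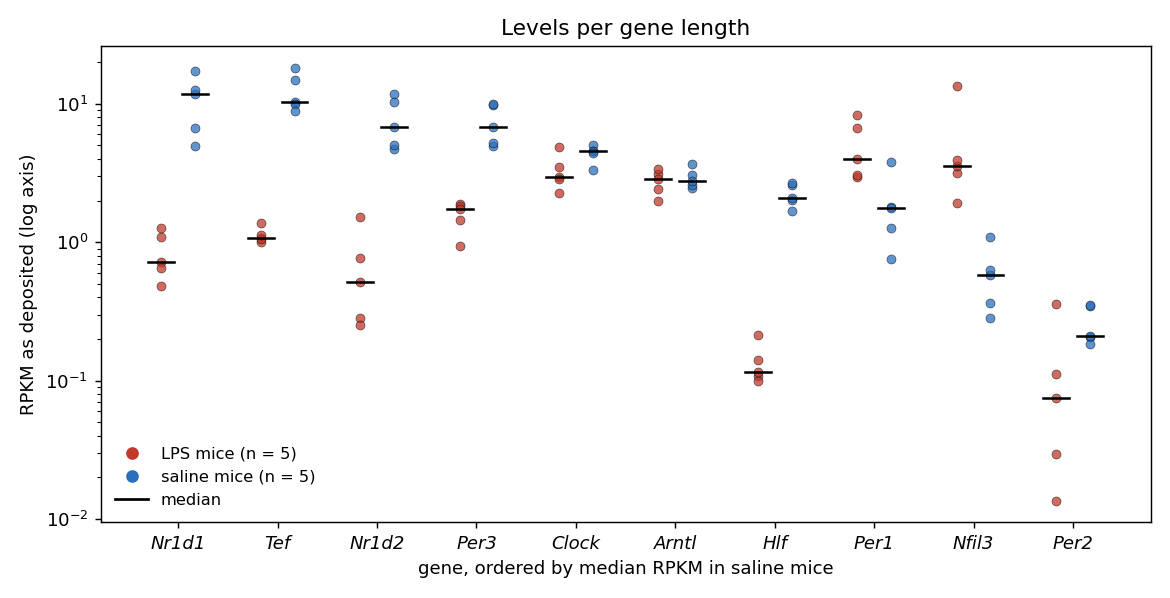
RPKM as deposited by the authors on a log axis for the 10 genes, ordered by their median in saline mice, with 5 LPS mice left of 5 saline mice and the median as a line. The order of genes in LPS runs from Per1 (3.98) to Per2 (0.0746), and that in saline from Nr1d1 (11.7) to Per2 (0.210).

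Of 11 other clock genes listed by their role, 9 passed the filter, of which 1 rose (Timeless) and 3 fell (Rora, Dbp and Bhlhe41). Over all genes tested 22.4% were called higher and 22.5% lower, so this count is not read as particular to clock genes. The median log2 fold change of the 9 was -0.40 against 0.00 over all genes tested. Dbp, the third PAR bZIP activator, was low, with 6, 10, 5, 8 and 16 raw counts in LPS, against 49, 25, 27, 19 and 18 raw counts in saline. In CPM, LPS replicate 5 lay between saline replicates 4 and 5, and the other LPS mice lay below all saline mice. Like Hlf, it passed the filter on low counts through saline (2 LPS libraries and 5 saline libraries above it), and so did Rora (3 LPS libraries and 5 saline libraries). Dbp was 2.90-fold lower (log2 fold change -1.54 ± 0.35, edgeR adjusted p = 0.0127). Rora, an activator that competes with REV-ERB proteins for ROR elements, had 1.36 ± 1.21 CPM in LPS and 6.05 ± 1.64 CPM in saline (SD, n = 5 each), without overlap. It was 4.35-fold lower (edgeR adjusted p = 0.00169), and 7.22-fold lower without LPS replicate 4. Both antagonistic arms at ROR elements, the REV-ERB repressors and Rora, were lower in LPS.

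Bhlhe41, a repressor at E-boxes, was the most abundant of these genes per length, with a median of 34.97 RPKM in LPS and 50.2 RPKM in saline. It was 1.68-fold lower (189 ± 71.0 CPM in LPS and 317 ± 93.5 CPM in saline, edgeR adjusted p = 0.0314). The call was lost on leaving out LPS replicate 4 (edgeR adjusted p = 0.0523), LPS replicate 5 (0.0816) or saline replicate 1 (0.0832), 2 (0.0810) or 4 (0.0549), and on removing the gene-length trend (0.370). Its relative Bhlhe40 had 1.43 ± 0.745 CPM in LPS and 1.84 ± 0.756 CPM in saline (edgeR adjusted p = 0.533). Timeless, a component of the replication fork whose clock role in mammals is less clear than in flies, had 24.6, 6.84, 21.5, 9.38 and 15.3 CPM in LPS, against 1.98, 0.594, 1.78, 2.25 and 1.07 CPM in saline. It rose 9.96-fold without overlap (edgeR adjusted p = 2.30e-05).

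The cryptochrome genes, partners of the period proteins, were not called. Cry1 had 1.62 ± 0.822 CPM in LPS and 2.14 ± 1.51 CPM in saline (edgeR adjusted p = 0.562), and its log2 fold change of -0.40 ± 0.63 became 0.10 without saline replicate 5. Cry2 had 3.20 ± 1.33 CPM in LPS and 4.32 ± 0.663 CPM in saline (log2 fold change -0.43 ± 0.30, edgeR adjusted p = 0.272). Ciart and Cipc, 2 further repressors of CLOCK and BMAL1, were not called either (edgeR adjusted p = 0.396 and 0.131). Npas2, which can replace CLOCK, had 0 to 2 counts per library and was not tested, like Rorb.

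**Figure D4:**
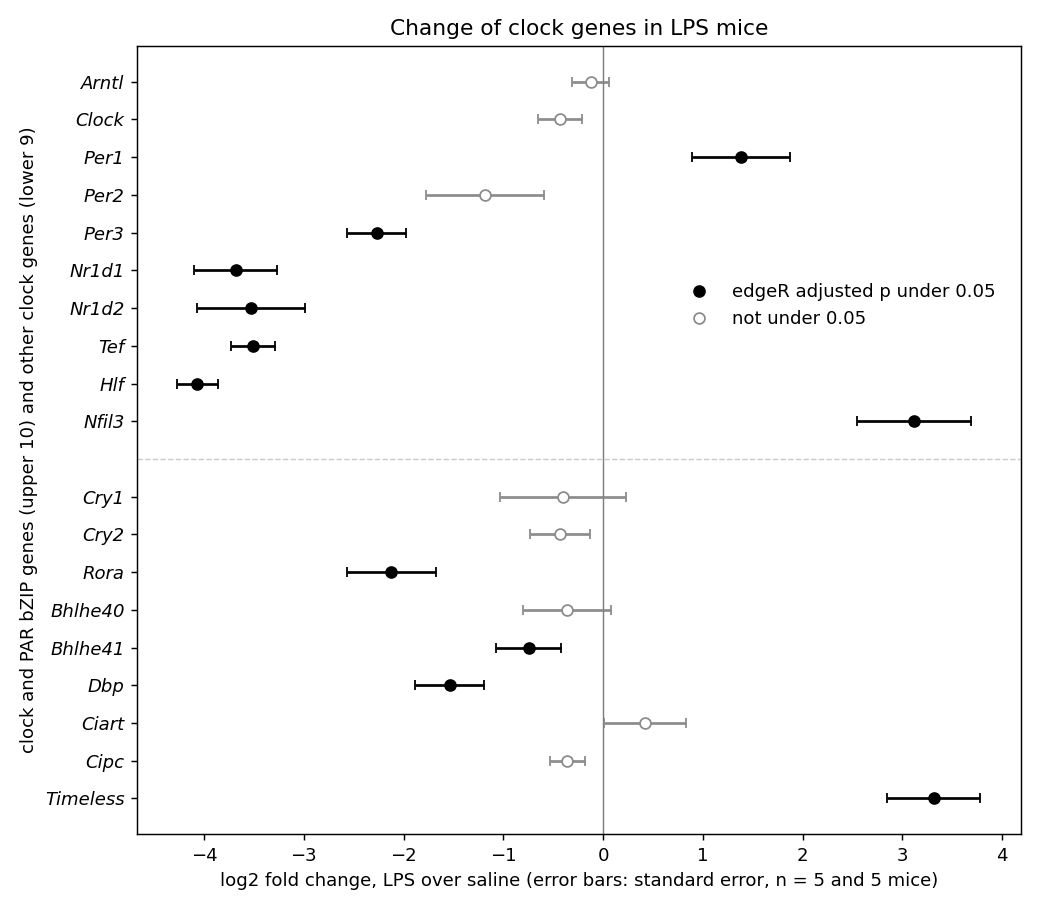
Log2 fold change of LPS over saline for the 10 genes (upper) and 9 tested other clock genes (lower), with standard errors over 5 and 5 mice; filled points have an edgeR adjusted p under 0.05. Hlf (-4.07), Nr1d1 (-3.68), Nr1d2 (-3.53) and Tef (-3.51) lie farthest left, Timeless (3.32) and Nfil3 (3.12) farthest right, and Arntl (-0.12) near 0.

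Of 16 tested genes that modify clock proteins, 1 rose and 7 fell, beside 22.4% called higher and 22.5% lower over all genes, and their median log2 fold change was -0.36. Nampt, which makes the NAD precursor used by sirtuins, rose 1.81-fold (80.4 ± 15.2 CPM in LPS and 44.4 ± 3.47 CPM in saline, edgeR adjusted p = 0.000345). Csnk1e, a kinase of period proteins, was 1.82-fold lower (99.3 ± 9.81 CPM in LPS and 181 ± 12.3 CPM in saline, edgeR adjusted p = 7.18e-05), and the kinase gene Gsk3b 2.23-fold lower (edgeR adjusted p = 8.13e-05). Crebbp and Ep300, acetyltransferases that assist CLOCK and BMAL1, Fbxw11, a ligase for period proteins, Csnk1d and Usp2 also fell. With the gene-length trend removed 2 of the 16 rose and 2 fell, and Crebbp, Ep300, Fbxw11, Csnk1d and Usp2 were no longer called. Leaving out single mice gave 5 to 9 genes lower: the call of Csnk1d was lost without LPS replicate 1, 2, 3 or 5 or saline replicate 2 or 3 (edgeR adjusted p of 0.0546 to 0.0646), and that of Usp2 without LPS replicate 3 or 5 or saline replicate 2 (0.0502 to 0.0565).

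Genes reported in macrophages as repressed by REV-ERB proteins moved in both directions. Of 5 tested, Il1b and Ccl2 rose, and Cx3cr1, Il6 and Nlrp3 fell, beside 22.4% called higher and 22.5% lower over all genes. Il1b had 155 ± 138 CPM in LPS and 5.36 ± 1.90 CPM in saline, while Il6 had 3.46 ± 2.19 CPM in LPS and 16.1 ± 4.04 CPM in saline (SD, n = 5 each; edgeR adjusted p = 5.47e-05 and 0.000262). Il1b was 29.02-fold higher with all mice and 18.7-fold higher without LPS replicate 2. The call of Ccl2 (edgeR adjusted p = 0.0205) was lost without LPS replicate 1 (0.0915), which held 4443 CPM, and without saline replicate 4 (0.0537). That of Nlrp3 (0.0383) was lost without LPS replicate 1, 3 or 5, or saline replicate 1, 2, 3 or 5 (adjusted p of 0.0504 to 0.119). With the gene-length trend removed neither Ccl2 nor Nlrp3 was called (edgeR adjusted p = 0.101 and 0.1685).

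Per1 is also a target of the glucocorticoid receptor. Of 4 tested genes induced by glucocorticoids, Tsc22d3 and Fkbp5 rose, Sgk1 fell and Dusp1 was not called. Zbtb16, on the same list, did not pass the filter on low counts. It had 97.5 CPM in LPS replicate 4 and 15.7 CPM in LPS replicate 5. In the other LPS mice it had at most 1.15 CPM, and in saline at most 0.485 CPM. Over all genes 22.4% were called higher and 22.5% lower. The call of Sgk1 (edgeR adjusted p = 0.0368) was lost without LPS replicate 2, 3 or 5 or saline replicate 1, 2, 3 or 4 (0.0509 to 0.102), with DESeq2 (0.108) and with the gene-length trend removed (0.118). Tsc22d3 had 853 ± 902 CPM in LPS and 201 ± 64.6 CPM in saline, and LPS replicate 4 held 2434 CPM. The rise of Tsc22d3 was 4.24-fold with all mice and 2.28-fold without that mouse, and that of Fkbp5 3.92-fold and 2.57-fold. The same mouse had the highest Per1, Nr1d1, Nr1d2 and Nfil3 of the LPS group. LPS replicate 1, with the next highest Per1 (40.2 CPM), had the lowest Fkbp5 of that group (60.5 CPM). It also had the highest Sgk1 of that group (2077 CPM) and, after replicate 4, the highest Dusp1 (167 CPM). Its Tsc22d3 (574 CPM) lay between those of other LPS mice. A part of glucocorticoids in the change of Per1 or of other members was not tested.

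Within a group, mice differed in clock transcripts. Saline replicate 1 was the highest saline mouse for 6 of the 10 genes (Per1, Per2, Nr1d1, Nr1d2, Tef and Hlf), and LPS replicate 4 was the highest LPS mouse for 6 (Arntl, Clock, Per1, Nr1d1, Nr1d2 and Nfil3). Covariation was measured on deviations of log2 CPM from the mean of the own group over 10 mice, for 45 pairs of members. The size of these deviations also enters the standard errors of the LPS to saline contrast, so covariation is not fully separate from the values the members were selected on. Nr1d1 and Nr1d2 varied together. Pearson's r was 0.87 (exact permutation of mice within groups, two-sided, p = 0.000972, Benjamini-Hochberg adjusted p = 0.0437 over 45 pairs), and Spearman's rho was 0.89 (p = 0.00104, adjusted p = 0.0469, exact permutation). Without the 2 mice farthest from the median of Nr1d1 r was 0.93. Leaving out each mouse gave an r of 0.84 to 0.92, but the adjusted permutation p passed 0.05 without LPS replicate 2, 3, 4 or 5 or saline replicate 1 or 3 (0.0781 to 0.219), and was 0.05 with RLE factors. Centred within the ranges of mouse numbers r was 0.94, where only 16 orders of mice exist and no pair can pass.

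No other pair had an adjusted p under 0.05, and 4 pairs had an unadjusted exact permutation p under 0.05. The next pairs were Per1 with Nr1d1 (r = 0.79, exact permutation p = 0.0140, adjusted p = 0.314), Per3 with Nr1d1 (r = 0.76, exact permutation p = 0.0279, adjusted p = 0.380) and Per1 with Nr1d2 (r = 0.69, exact permutation p = 0.0338, adjusted p = 0.380). Hlf, which fell in LPS like Nr1d1 and Tef, had an r of 0.16 with Nr1d1 and of 0.06 with Tef. With 7 to 15 raw counts of Hlf per LPS mouse, counting noise limits what these values can show. Nfil3 and Tef, which moved in opposite directions between the groups, had an r of -0.08 within them. Genes of 1 library share its depth and composition.

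**Figure D5:**
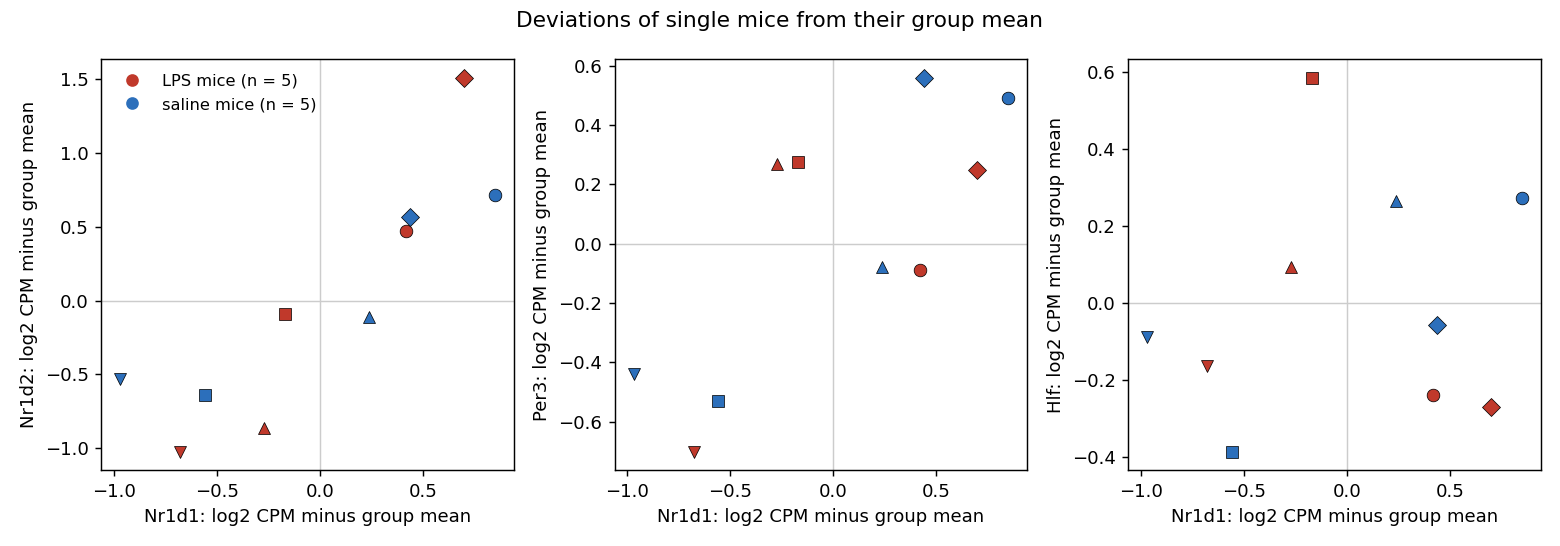
Deviation of log2 CPM from the group mean for Nr1d1 (horizontal axes) against Nr1d2, Per3 and Hlf (vertical axes), 1 point per mouse (5 LPS and 5 saline mice, shapes mark replicates). Nr1d2 follows Nr1d1 (r = 0.87), Per3 less closely (r = 0.76), and Hlf shows no such line (r = 0.16). Hlf had only 7 to 15 raw counts per LPS mouse, which limits its r.

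Markers of other cells were summed per mouse and compared with exact two-sided permutation tests, adjusted over 9 lists. The 9 microglial markers summed to 16755 to 36442 CPM in LPS and 59305 to 66922 CPM in saline (adjusted p = 0.0179), so the sorted cells carried the labelled identity in both groups at different levels. Sums that were lower in LPS, like Per3, Nr1d1, Nr1d2, Tef and Hlf, were those of 6 endothelial markers (6.42 to 12.2 CPM in LPS and 53.1 to 78.8 CPM in saline, with Cldn5 at 0 in every library) and of 7 astrocyte markers (148 to 368 CPM in LPS and 370 to 433 CPM in saline), each with an adjusted p of 0.0179. Pecam1 made up most of the endothelial sum (4.38 to 10.5 CPM in LPS and 47.6 to 72.04 CPM in saline), while Flt1, Cdh5 and Ly6c1 had at most 1.37 CPM in any library. Slc1a3 made up most of the astrocyte sum (133 to 337 CPM in LPS and 353 to 405 CPM in saline), while Gfap (0.470 to 2.92 CPM in LPS and 0.0624 to 1.87 CPM in saline) and Aldoc (10.3 to 28.4 CPM in LPS and 11.1 to 19.8 CPM in saline) overlapped between the groups. The part of these cells in the falls was not tested. The 9 neuronal markers summed to 3.93 to 7.14 CPM in LPS and 4.56 to 10.4 CPM in saline (adjusted p = 0.194).

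Sums that were higher in LPS, like Per1 and Nfil3, were those of 8 neutrophil markers (0.538 to 19.9 CPM in LPS and 0 to 0.988 CPM in saline, adjusted p = 0.0476), of which Mpo and Elane were at 0 in every library. The highest neutrophil sum was that of LPS replicate 4, the mouse with the highest Per1 and Nfil3. The lowest LPS sum, that of replicate 2 (0.538 CPM), lay in the saline range, while its Nfil3 (14.7 CPM) was above all saline mice. LPS replicate 1, with the next highest Per1 (40.2 CPM), had S100a8 and S100a9 at 0 CPM. The 7 monocyte markers summed to 30.2 to 56.1 CPM in LPS and 9.12 to 17.3 CPM in saline (adjusted p = 0.0179). Among them Fn1 made up most of the sum in LPS, and Ccr2 had 0.939 to 4.58 CPM in LPS and 5.98 to 13.3 CPM in saline. The 6 border macrophage markers summed to 14.5 to 44.0 CPM in LPS and 9.84 to 14.8 CPM in saline (adjusted p = 0.0286). Cbr2 (2.28 to 20.2 CPM in LPS and 0.170 to 1.78 CPM in saline) and F13a1 (2.31 to 16.1 CPM in LPS and 0.214 to 0.933 CPM in saline) were higher in LPS, whereas Mrc1 had 4.37 to 10.02 CPM in LPS and 7.89 to 12.1 CPM in saline, and Cd163 and Lyve1 had at most 0.679 CPM in any library. The part of these cells in the rises of Per1 and Nfil3 was not tested. Oligodendrocyte markers (5 genes, 44.4 to 70.9 CPM in LPS and 51.8 to 84.3 CPM in saline) and lymphocyte markers (7 genes, 0.307 to 2.09 CPM in LPS and 0.187 to 1.52 CPM in saline) had adjusted p-values of 0.223 and 0.603.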

How the data were processed

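RNA-seq libraries of sorted cortical microglia from 5 LPS and 5 saline mice were analysed, 1 library per mouse. The authors deposited raw counts per gene, made with featureCounts on GRCm38 (mm10), per the submitters' processing notes; no source used here gives the aligner, annotation, versions or use of strand. The authors also deposited RPKM values, per the file headers. Each value equalled its count multiplied by a library constant and a gene constant (100% of values within 2 percent), so RPKM served for levels per length.

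Per the labels, 5 ng of RNA were amplified without molecular identifiers being named, so precision covers spread between mice and not amplification. The row without a gene name (1) was left out, and 15 names turned into dates were restored from their gene IDs. Genes were filtered with filterByExpr and tested with edgeR 4.0.16 (TMM factors, quasi-likelihood test, Benjamini-Hochberg adjustment over 13793 genes, threshold 0.05), in R 4.3.3. Log2 CPM used a prior count of 2, and standard errors come from log2 CPM of 5 and 5 libraries. DESeq2 1.42.0, limma 3.58.1 and other factors, filters and offsets were alternatives. Permutation tests were written with numpy 2.4.6 in Python 3.11.15, and the ranks for Spearman's rho came from scipy 1.17.1. The fit was tested on simulated data with 200 changed genes. Named were all members and up to 6 called genes with the smallest adjusted p of each further list. Cry1, Cry2, Npas2, Dbp, Rora, Bhlhe40 and Bhlhe41 were named in any case. Csnk1d, Usp2, Rorb, Ciart, Cipc, Dusp1, Zbtb16, Thra and single marker genes were added after their values were seen. Some genes of the further lists are not reported here. Members and lists were chosen with earlier results of these data known.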

Additional observations from a re-analysis of the deposited data

Results flagged for a closer look

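Of 88 groups of 5 mice examined gene by gene, 7 held a mouse far from the other 4. The rule was a gap over 0.71 of the group's range in CPM. Chance flags about 1 in 20 groups where values are normally distributed. CPM was taken without a log and each distant mouse was the highest of its group, so that rate may not hold here. In LPS, Per2 had 2.00 CPM in replicate 2 (nearest other mouse 0.626 CPM), and Ccl2 had 4443 CPM in replicate 1 (nearest 1215 CPM). LPS replicate 4 was the distant mouse for 3 genes: Nfil3 with 65.7 CPM (nearest 18.2 CPM), Rora with 3.49 CPM (nearest 1.17 CPM) and Tsc22d3 with 2434 CPM (nearest 619 CPM). In saline, replicate 2 was highest for Crebbp with 470 CPM (nearest 433 CPM) and for Nlrp3 with 66.4 CPM (nearest 48.7 CPM).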

How the results depend on the processing

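Of 218 fold changes of members under an alternative, 214 kept their direction and side of the threshold, 3 passed it only there (Clock without LPS replicate 4, Per2 without LPS replicate 2 and with limma-voom) and 1 changed sign. No paired analysis was possible because the replicate numbers only follow accession order. The mouse numbers in the titles give ranges, and a fit with these ranges as a term called 2 members higher and 5 lower, the counts found without it. Low counts limit Per2, Hlf, Dbp and Cry1.

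With the gene-length trend removed, the log2 fold changes of Clock (0.094), Cipc (0.034), Csnk1a1 (0.16), Btrc (0.17), Prkaa1 (0.10), Ncor1 (0.36) and Hdac3 (-0.10) changed sign. The same setting called 2 clock modifiers higher and 2 lower, 1 REV-ERB target higher and 0 glucocorticoid targets lower. Leaving out each mouse gave -0.147 to 0.022 for Nono (above 0 without LPS replicate 4 or 5) and -0.618 to 0.097 for Cry1 (above 0 without saline replicate 5). Without a filter 4 glucocorticoid targets were higher, and with DESeq2 0 were lower. Both limma fits on filtered RPKM (pseudocounts 1 and 0.1) called 1 other clock gene lower, with Rora and Dbp under the filter. Covarying pairs were 0 with RLE factors and 0 when centred within ranges of mouse numbers. With library sizes alone the neutrophil sum differed by 6.18 CPM (exact permutation, adjusted p = 0.0595). Leaving out each mouse gave 1 to 2 REV-ERB targets higher, 0 to 1 glucocorticoid targets lower and 0 to 1 covarying pairs. The causes were not tested.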

Other observations

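Likeness to Nr1d1 was measured as the correlation of deviations of log2 CPM from the group mean over 10 mice, for 13792 genes, as a description. Nr1d2 stood at rank 22 (r = 0.87) and Ciart, a repressor of CLOCK and BMAL1, at rank 23 (r = 0.86). Per1 stood at rank 88 and Per3 at rank 157, against rank 849 for Tef, 5308 for Hlf and 7123 for Clock. Among the other clock genes ranked, Ciart was the highest. Rora followed at rank 783, Dbp stood at rank 6994 and Cry1 was last at rank 11336 (r = -0.38). Of the glucocorticoid targets, Sgk1 (rank 235) and Dusp1 (rank 302) stood above Tef, and Tsc22d3 (rank 966) and Fkbp5 (rank 7195) below it. The highest values were those of Ddx3x (0.97) and Nfkbia (0.94), named after their values were seen. All genes of 1 library share its depth and composition.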
